A study of Mus musculus with 24 samples.

Results

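MicroRNAs (miRNAs) were measured on bead arrays in the intima, the inner lining, of right carotid arteries taken 12 h and 48 h after surgery on the opposite vessel. All mice were male C57Bl6 animals of 6 to 8 weeks whose left carotid artery had been partially ligated. The right carotid carried no ligation and served as the study's control, but it came from the same operated mice, and no artery of a sham-operated or unoperated mouse was among the samples. The intima was flushed out with the lysis reagent Qiazol, and RNA was purified with the miREasy kit. All right carotid arrays of both times were taken, 12 of the 24 arrays of the series, 6 at each time. At 12 h, arrays 1 and 4, 2 and 5, and 3 and 6 had rank correlations of 0.986 to 0.998 and were averaged as repeats, which left 3 samples at 12 h and 6 at 48 h, 9 of the 18 samples in the series. The labels do not say whether numbered samples came from separate animals or from pools, so p-values measure the spread between these samples only. Each time point was deposited as its own table, so the effect of time and the effect of the table cannot be told apart in any comparison of 48 h with 12 h.

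miRNAs are short RNAs that guide Argonaute proteins to messenger RNAs, mainly by pairing through the seed at their 5′ end, and reduce the output of those messages. In arteries, endothelial cells are known for miR-126, smooth muscle cells for miR-143 and miR-145, and red blood cells for miR-451, miR-144 and miR-486. A flushed intima can carry all of these cells, and fewer cells of a type cannot be told apart from less of its RNA per cell.

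The sequences below, as deposited with the array, are those of the miRNAs on which the results turn. Capitals mark the seed, bases 2 to 8. They comprise 5 of the brightest miRNAs, both strands of miR-126, the erythroid pair, a let-7 member that fell, and miRNAs whose detection was lost or gained between the times.
let-7b: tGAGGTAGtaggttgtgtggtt
miR-27a: tTCACAGTggctaagttccgc
miR-21: tAGCTTATcagactgatgttga
miR-23b: aTCACATTgccagggattacc
miR-24: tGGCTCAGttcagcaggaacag
miR-126-3p: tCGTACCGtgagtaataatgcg
miR-126-5p: cATTATTActtttggtacgcg
miR-486: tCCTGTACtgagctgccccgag
miR-451: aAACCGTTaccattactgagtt
let-7c: tGAGGTAGtaggttgtatggtt
miR-365: tAATGCCCctaaaaatccttat
miR-683: cCTGCTGTaagctgtgtcctc
miR-295: aAAGTGCTactacttttgagtct
miR-294: aAAGTGCTtcccttttgtgtgt
miR-872*: tGAACTATtgcagtagcctcct
miR-196a*: tCGGCAACaagaaactgcctga
let-7b and let-7c share the seed GAGGTAG, which 9 probes of the array carry. miR-294 and miR-295 share the seed AAGTGCT and lie in the same cluster, that of miR-290, on chromosome 7. In RefSeq's annotation of build GRCm38.p6, miR-126-3p lay at chr2:26591402-26591423 on the plus strand inside Egfl7, the gene of a protein secreted by endothelial cells. miR-21 lay at chr11:86584120-86584141 on the minus strand inside Vmp1, let-7b at chr15:85707325-85707346 on the plus strand inside Lncppara, and miR-451 at chr11:78073186-78073207 on the plus strand with no other gene around it.

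The miRNA make-up of the unligated intima came first. Of 655 probes, 238 (36.3%) were detected on all 12 right arrays, with a detection p-value under 0.05, and 120 (18.3%) on none of them. The remaining 297 were detected on some arrays. Annotated mature strands were detected on every array for 190 of 495 probes, star strands, the less abundant arm of a hairpin, for 36 of 116, and probes for candidate miRNAs from sequencing (named solexa) for 12 of 44. The 10 brightest probes held 11.0% to 13.4% of an array's summed signal at 12 h and 11.4% to 18.5% at 48 h.

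The brightest always-detected miRNAs were let-7b, miR-27a, miR-21, miR-23b and miR-24, ranked by their mean percentile within the array, where 100 is the brightest of 655 probes. A probe's brightness also depends on the probe, so this order is not one of abundance. let-7b, a member of the let-7 family that accumulates in differentiated tissues, had raw signals of 25301.5, 22680.5 and 22615.5 in the 12 h samples and a lowest, median and highest of 21874, 27562.5 and 28980 at 48 h. miR-21, which rises in many injured tissues, stood at 22091, 20517.5 and 20364.5 at 12 h and at 16577, 24362.5 and 25975 at 48 h. For both miRNAs the raw groups overlapped. Quantile normalization gives the brightest probe of every array the same value, so no normalized change was read for let-7b and miR-21. Scaling to the 75th percentile, which does not do so, gave 0.12 to 0.57 log2 units for let-7b and 0.07 to 0.51 for miR-21, and neither passed.

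miR-23b, miR-27a and miR-24 come from the miR-23/27/24 clusters, which are broadly expressed in vessels. miR-27a read 22430, 21017 and 21177.5 at 12 h against 20381, 23717.5 and 25810 (lowest, median and highest) at 48 h. miR-23b read 22088, 20376.5 and 20002.5 against 19793, 24083.5 and 25396. Both groups of values overlapped. miR-24 read 21263.5, 19075 and 19212.5 at 12 h against 23596, 24851.5 and 25482 at 48 h, with no overlap and a change of 0.24 ± 0.04 (SE, limma, adjusted p = 0.00385). It did not pass under ranks (limma, adjusted p = 0.458) or in every 75th percentile scaling (adjusted p of up to 0.432). The other 10 of the 15 brightest were miR-191, miR-151-5p, miR-26a, let-7d, a solexa candidate, miR-708, miR-126-5p, miR-145, miR-1195 and let-7d*.

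**Figure D1:**
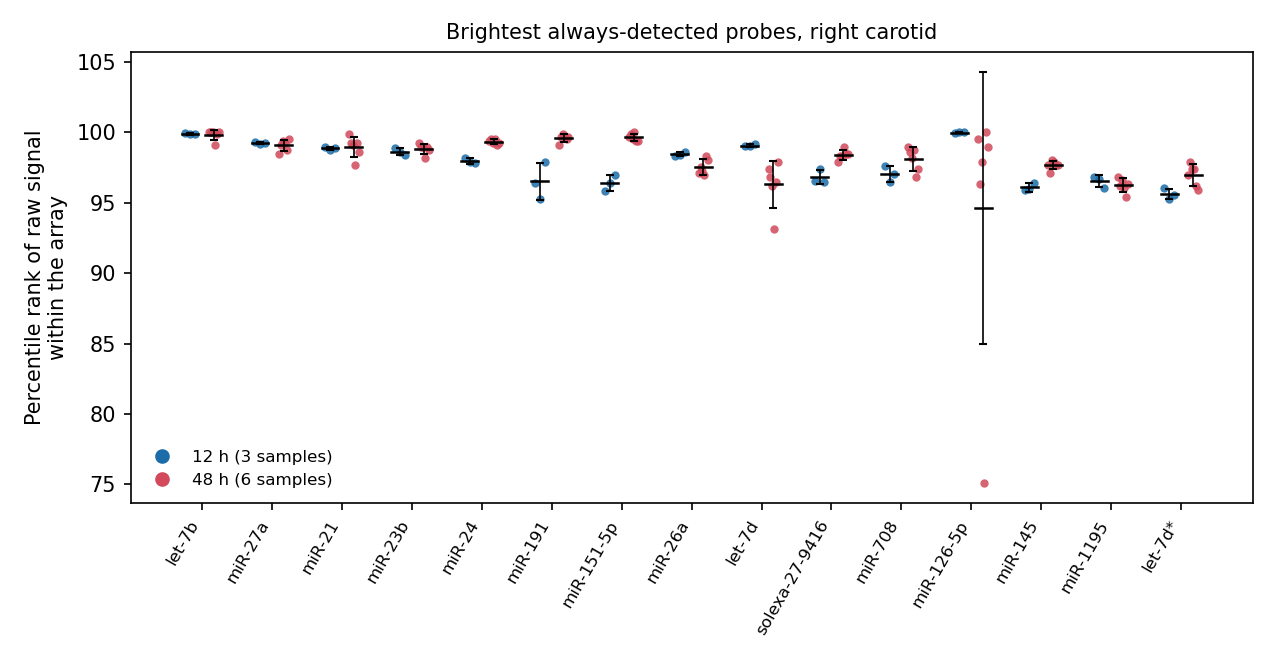
Percentile rank of raw signal within the array (y axis, 100 is the brightest of 655 probes) for the 15 brightest always-detected probes, with points for samples and bars for mean and SD at 12 h (n = 3) and 48 h (n = 6); an SD bar may run past 100. All samples lay near the top except 48 h sample 4 for miR-126-5p, at a percentile of 75.1.

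The tissue label was set against cell type markers. All 4 endothelial probes, for both strands of miR-126 and for miR-221 and miR-222, were detected on all 12 right arrays. The smooth muscle miRNAs miR-143 and miR-145 were detected on all 12 as well, while miR-145* was on none. By the mean over both times, miR-145 was among the 15 brightest always-detected probes. Of 3 erythroid probes, miR-451 and miR-486 were detected throughout, and miR-144, which shares a transcript with miR-451, on no array. Among 5 leukocyte probes, miR-223, the myeloid miRNA, was detected on all 12 arrays. The striated muscle list had 3 of 8 probes always detected (miR-133a, miR-133a* and miR-208b). The liver miRNA miR-122 was detected on no 12 h array and on 2 of 6 at 48 h. Of 7 neural probes, 2 were always detected (miR-128 and miR-129-5p) and 2 never (miR-9 and miR-9*). Of 7 epithelial probes, miR-200b was always detected, miR-200a never and the other 5 on some arrays. Of the 120 never-detected probes, 70 were also below detection on every left carotid array, and 0 were detected on all of the left arrays.

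Before comparing the times, samples were compared by the rank order of their probes. Rank correlations lay between 0.813 and 0.850 within 12 h, between 0.737 and 0.854 within 48 h and between 0.632 and 0.785 across the times. 3 right samples lay nearer, on average, to the left samples of their time than to the other right ones. These were 12 h sample 1 (0.867 against 0.847), 48 h sample 3 (0.806 against 0.800) and 48 h sample 5 (0.811 against 0.789). At 48 h, samples 1, 2 and 4 stood apart with 336, 356 and 335 detected probes and median raw signals of 124, 142 and 119, whereas the other 48 h samples had 387 to 410 and medians of 184 to 500. Medians at 12 h were 332 to 861. Both sets of samples were left out in turn in the limma test of the change per probe. They were kept in the detection counts, the rank shifts and the comparison of the arteries.

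The number of detected probes did not separate the times. It was 382.8 ± 14.6 per sample at 12 h (SD, n = 3) and 371.2 ± 33.3 at 48 h (n = 6), a difference of −11.7 with an exact two-sided permutation p of 0.571, where the smallest possible p was 0.0238. Probe by probe, 311 were detected on all 6 arrays at 12 h and 274 on all 6 at 48 h. In all, 151 probes were detected on more arrays at 12 h and 122 on more at 48 h.

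Complete switches were rare. 8 of 655 probes (1.22%) went from 6 arrays at 12 h to 0 at 48 h, and 6 (0.916%) from 0 to 6. Of the 8 lost, miR-871, miR-742 and miR-878-3p lie on the X chromosome, which carries 78 of the probes. The other lost probes were miR-365, miR-683, miR-295, miR-302a* and miR-697. The 6 gained were miR-872*, miR-196a*, miR-302c, miR-197, miR-551b:9.1 and miR-294.

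**Figure D2:**
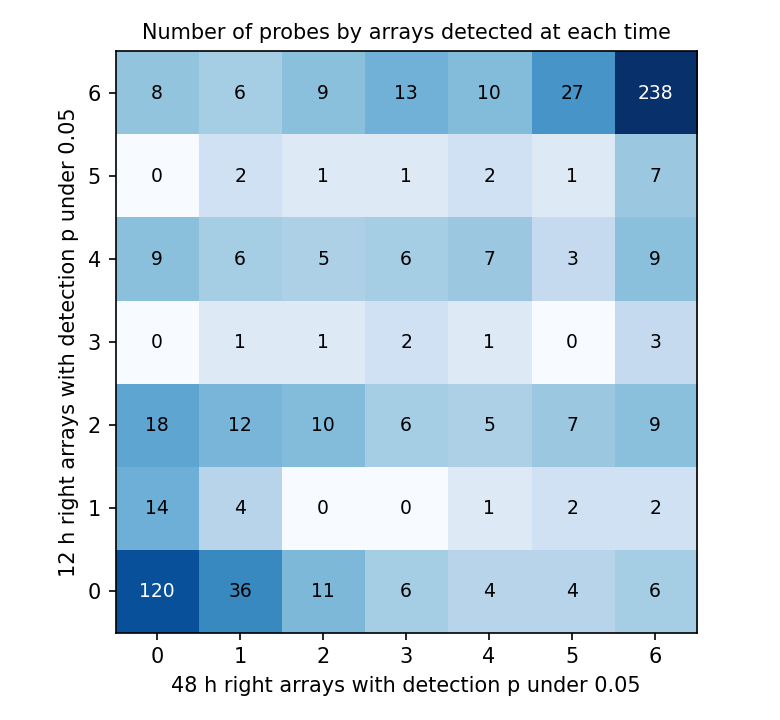
Number of probes for each combination of arrays detected at 12 h (y axis, 0 to 6) and at 48 h (x axis, 0 to 6), right carotid, detection p under 0.05. The corners hold 238 probes detected on all arrays, 120 on none, 8 on all at 12 h and none at 48 h, and 6 the other way round.

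The switched probes differed in size. Each was picked because it was detected only in the group where it was bright, and it entered the limma test only through that group. The p-values of these losses and gains therefore set detected signals against undetected ones and are no separate support for a switch. miR-365 read 10513, 7982.5 and 9235.5 at 12 h and 44, 52 and 58 (lowest, median and highest) at 48 h. The groups were far apart in every sample. miR-365 was at least 60.3-fold lower at 48 h (limma, adjusted p = 4.73e-07), where the bound sets the bright group against the lowest detected signals of the dim arrays. miR-683 read 7672.5, 9819.5 and 5370 against 68, 77.5 and 110 and was at least 47.5-fold lower (limma, adjusted p = 9.59e-06). Neither pair of groups overlapped. Both falls stayed past the threshold without 48 h samples 1, 2 and 4, and without 12 h sample 1 and 48 h samples 3 and 5. Through the way these probes were picked, neither the lack of overlap nor these fits are separate support. The other 6 losses had bounds of 1.14-fold for miR-697 to 5.05-fold for miR-871.

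Among the gains, miR-872* read 261.5, 253.5 and 235 at 12 h and 182, 1665.5 and 6697 at 48 h. Raw values therefore overlapped, with 48 h samples 2, 5 and 6 at 3037, 5147 and 6697 and samples 1, 3 and 4 between 182 and 294. On neqc values its bound was 10.6-fold (limma, adjusted p = 0.0212), but the 75th percentile scalings, which correct no background, gave 4.0- to 5.44-fold and not a call in both. miR-196a* read 239, 220.5 and 228 against 204, 328.5 and 935, again with raw overlap. Its bound was 4.26-fold on neqc values (limma, adjusted p = 0.000716), against 1.68- to 2.29-fold in those scalings. The other 4 bounds ran from 1.97-fold for miR-294 to 4.23-fold for miR-302c. For all 6 gains both 75th percentile scalings gave a fold under the neqc bound and 0 passed in both, so the size of a gain depended on the normalization. For all 8 losses both scalings gave a fold above the bound, which is a least value. All 8 passed in both, which through the same selection is no separate support. Both scalings also lowered the median change of all tested probes, from 0.08 to −0.67 and −0.22 log2 units. They therefore did not treat gains and losses equally, and the contrast does not rank the losses above the gains.

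miR-294 and miR-295 share a seed and belong to the miR-290 cluster, which is best known for its activity in early embryos. miR-295 lost its detection and miR-294 gained it. miR-295 read 752.5, 637 and 779 at 12 h and 45, 62 and 142 at 48 h, at least 2.93-fold lower (limma, adjusted p = 0.000329). miR-294 read 142, 137 and 145.5 against 125, 187 and 287, with raw overlap and the limits on gains given above. Across the cluster's 14 probes, 4 were never detected, 7 were tested, 2 rose and 1 fell.

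Rank order was partly kept between the times. The rank correlation of the mean percentiles was 0.831 over 655 probes and 0.854 over the 238 always detected, as a description. The median absolute shift was 6.55 percentile points over all probes and 4.61 over the always-detected ones. Over all probes, 226 moved by more than 10 points and 67 by more than 25. The 10 brightest at 12 h and the 10 brightest at 48 h had 4 probes in common, and the sets of 50 had 30. miR-126-3p made the largest move among always-detected probes, from 99.3 at 12 h to 57.9 at 48 h.

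**Figure D3:**
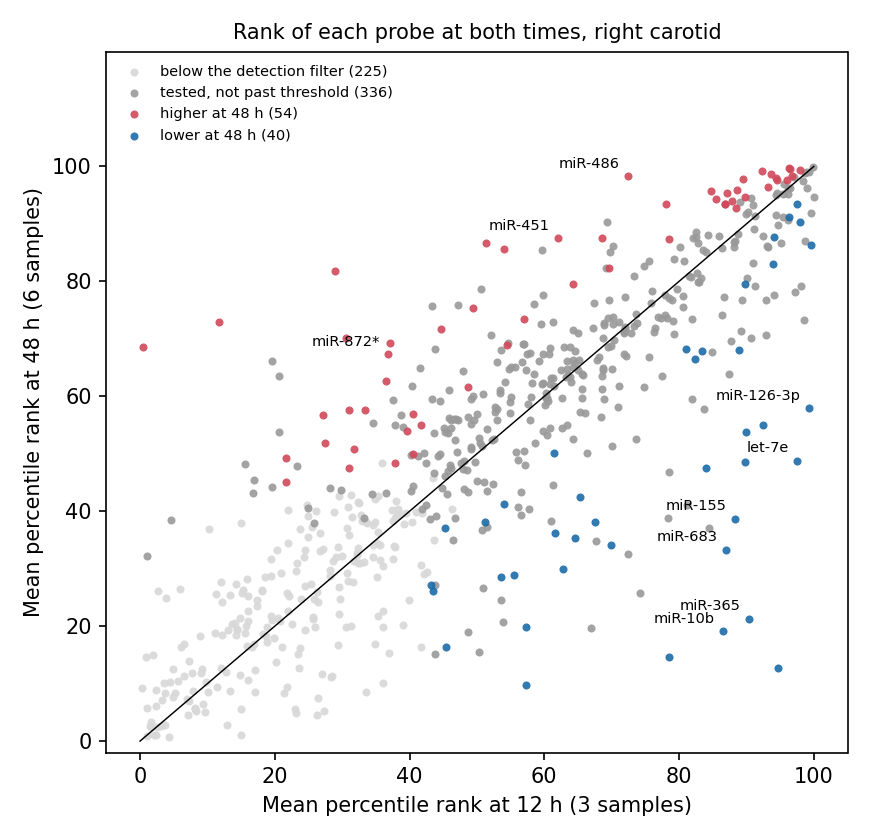
Mean percentile rank of each of 655 probes at 12 h (x axis, 3 samples) and at 48 h (y axis, 6 samples), right carotid, coloured by the limma result, with the line of equal rank. miR-365, miR-10b, miR-683, miR-155 and miR-126-3p lie far below the line and miR-486 and miR-451 above it.

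The change per probe was tested on normalized log2 signals with limma over 430 probes detected on at least 3 arrays of either time. At an adjusted p under 0.05, 94 changed (21.9%), of which 54 were higher at 48 h (12.6%) and 40 lower (9.3%), and 148 had an unadjusted p under 0.05. The groups did not overlap for 119 (27.7%). The median change over all tested probes was 0.08 log2 units. Leaving out 48 h samples 1, 2 and 4 gave 87 calls, and leaving out 12 h sample 1 and 48 h samples 3 and 5 gave 37. The latter fit kept only samples 2 and 3 at 12 h. In calls lost under it, here and below, the part of the smaller group was not tested. Without 12 h sample 1 alone or 12 h sample 2 alone there were 57 and 62. Among the 238 always-detected probes, 31 were higher (13.0%) and 13 lower (5.46%).

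The direction of these counts rested on the scaling. With each array scaled to its 75th percentile over always-detected probes, 15 were higher and 92 lower, the median moved to −0.67, and the share of higher calls fell from 57.4% to 14.0%. Over all probes the same scaling gave 7 higher and 41 lower with a median of −0.22. Passing or missing these scalings therefore does not rank falls above rises, here or below. On raw signals, all 48 h samples lay below all 12 h samples for 95 of the 430 tested probes (22.1%). They lay all above for 20 (4.65%). Of the 40 falls 38 lay wholly below, and of the 54 rises 19 lay wholly above. Among the 336 tested probes that did not pass, 57 lay wholly below and 1 wholly above. The never-detected probes, which mark the level without signal, had median raw values of 109.8 to 126.3 in the 12 h samples and 41.0 to 67.0 in the 48 h samples. The part of that difference in the rises and in the falls was not tested.

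Of the 4 endothelial probes, 1 changed, where 94 of all 430 tested probes (21.9%) did. The counts of the lists below stand beside that same share. miR-126-3p read 22799.5, 21266.5 and 21246.5 at 12 h and 319, 298, 264, 270, 621 and 568 in 48 h samples 1 to 6. All 48 h values lay far below all 12 h values. Its change was −5.42 ± 0.45 log2 units, 42.8-fold lower at 48 h (limma, adjusted p = 6.61e-05), and it passed under both 75th percentile scalings, without 48 h samples 1, 2 and 4 (−5.96) and without 12 h sample 1 and 48 h samples 3 and 5 (−5.10). miR-126-5p, the other strand of the same hairpin, read 25385, 23386 and 23398.5 at 12 h and 24665, 14371, 20243, 1134, 27261 and 22748 at 48 h. Apart from sample 4 it stayed among the brightest probes, and its change of −0.75 ± 0.64 did not pass (limma, adjusted p = 0.444). miR-221 (−0.01 ± 0.46) and miR-222 (0.20 ± 0.29) did not pass either.

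Both tested smooth muscle miRNAs were higher at 48 h. miR-143, a brake on smooth muscle growth, read 12495, 14456 and 10148 at 12 h and 11662, 15978 and 20303 (lowest, median and highest) at 48 h. The raw groups overlapped while the normalized ones did not, and the change was 0.48 ± 0.12 (limma, adjusted p = 0.0189). miR-145, its cluster partner that favours the contractile state, read 16940, 16921.5 and 16736.5 against 15044, 19036 and 21509, likewise, with a change of 0.25 ± 0.06 (limma, adjusted p = 0.0133). Neither passed under the 75th percentile scalings, under ranks, or without 12 h sample 1 and 48 h samples 3 and 5, although both stayed above 0 in these fits. The striated muscle list had 0 of 5 tested probes past the threshold. Its median of 0.55 turned to −0.71 and −0.27 under the 75th percentile scalings.

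Both tested erythroid miRNAs rose, with a list median of 3.27, against 0.08 for all tested probes, while under each 75th percentile scaling the count was 1 of 2. miR-486 read 3006.5, 766 and 6473.5 at 12 h and 21777, 23324, 22877, 21035, 20964 and 20114 at 48 h. Every 48 h sample was above every 12 h sample, and the 48 h samples agreed closely while those at 12 h did not. Its change was 3.32 ± 0.63 log2 units, 9.97-fold (limma, adjusted p = 0.00704). miR-451, made without Dicer in erythroid cells, read 1619, 865 and 812 at 12 h and 451, 15967, 10926, 7670, 8288 and 10011 at 48 h. Sample 1 lay below all 12 h samples on the raw scale and the other 5 above them. After normalization the groups did not overlap, with a change of 3.22 ± 0.76 (limma, adjusted p = 0.0165). The summed raw signal of the 3 erythroid probes was 1727 to 7390 at 12 h and 22260 to 39325 at 48 h, with miR-144 between 32 and 104.5 and undetected in every sample. Without 48 h samples 1, 2 and 4, limma called miR-451 (3.45) and not miR-486 (3.24, adjusted p = 0.0546). Without 12 h sample 1 and 48 h samples 3 and 5 it called neither (adjusted p = 0.131 and 0.080). The part of blood cells in the other changes was not tested.

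Of 5 tested leukocyte miRNAs, 1 changed. miR-155, induced when lymphocytes and macrophages are activated, read 7653, 7819.5 and 7823 at 12 h and 55, 60, 62, 68, 4395 and 129 at 48 h. It was detected on 6 arrays at 12 h and on 1 at 48 h, where sample 5 alone stood far above the others. Its fitted change was −5.95 ± 1.18 (limma, adjusted p = 0.00786). Without 48 h samples 1, 2 and 4 it was −5.15 and did not pass (limma, adjusted p = 0.0668). Without 12 h sample 1 and 48 h samples 3 and 5 it was −6.82 and passed. miR-155 entered the test only through the 12 h group, and at 48 h its signal was undetected outside sample 5. The size of the fitted change therefore rests on background signals and is not a measurement. The lymphocyte miRNA miR-150 read 10343, 7374.5 and 11688 against 36, 5305 and 7994 (lowest, median and highest) and did not pass (limma, adjusted p = 0.354). miR-223 had a fitted change of 0.07 ± 0.84, and its 48 h samples split between 1127 and 1371 for samples 6 and 4 and 10063 to 12576 for the others. The median of the leukocyte list was −0.95.

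**Figure D4:**
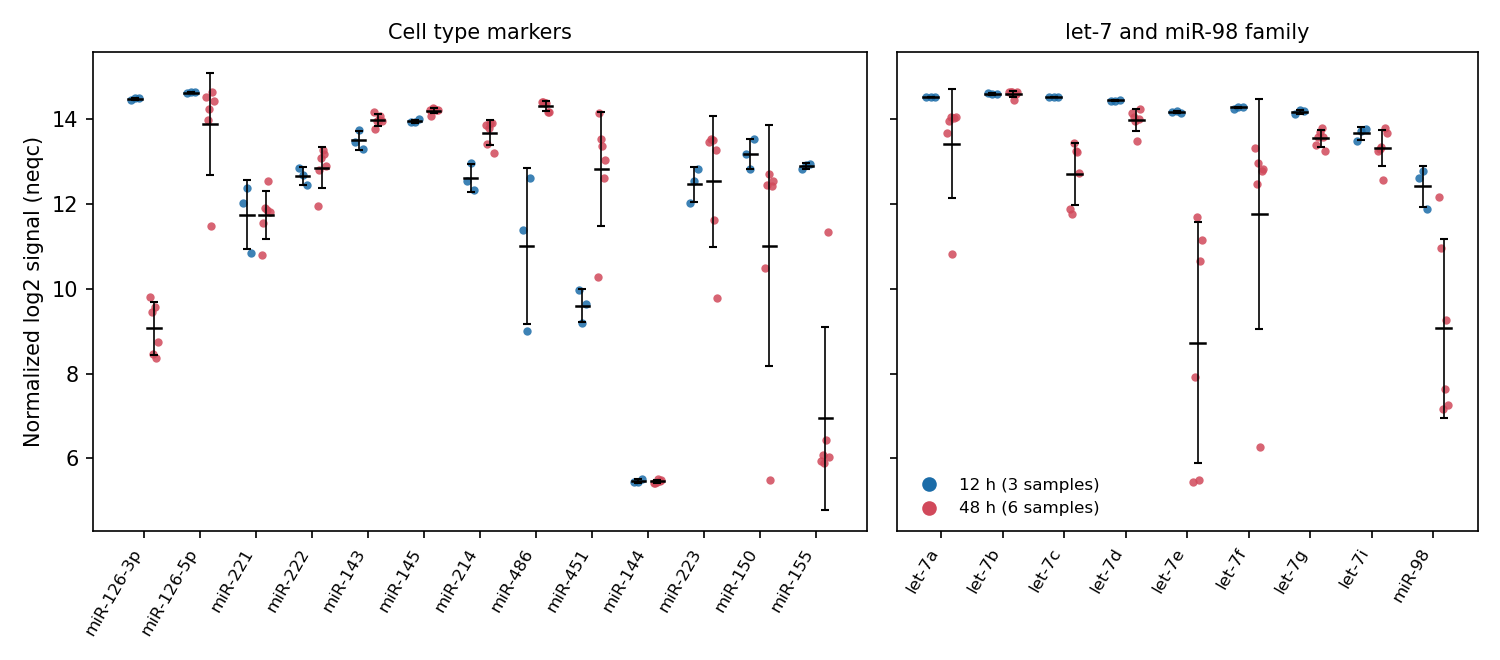
Normalized log2 signal (y axis) of cell type marker probes (left) and of the let-7 and miR-98 family (right) at 12 h (n = 3) and 48 h (n = 6), with points for samples and bars for mean and SD. miR-126-3p and miR-155 fall, miR-486 and miR-451 rise, miR-144 stays at the floor, and let-7e spreads widely at 48 h.

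Mesenchymal miRNAs included 2 that rose of 4 tested. miR-214, transcribed with miR-199a from an antisense transcript of dynamin 3, read 6444.5, 7979 and 5583 at 12 h and 9064, 12156 and 18088 at 48 h, without overlap. Its change was 1.06 ± 0.21 (limma, adjusted p = 0.00779), with an adjusted p of up to 0.133 under the 75th percentile scalings and 0.115 without 12 h sample 1 and 48 h samples 3 and 5. The joint probe for miR-199a-3p and miR-199b rose by 0.68 ± 0.21 (limma, adjusted p = 0.0452) with overlapping groups and lost its call when any of 8 of the 9 samples was left out.

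The let-7 family, which shares its seed with miR-98 and represses growth genes such as Hmga2, had 9 tested probes, of which 3 fell and 0 rose. let-7c read 23656.5, 21602.5 and 21836 at 12 h and 2326, 7794.5 and 12047 (lowest, median and highest) at 48 h. let-7g read 19435, 18864.5 and 18593 against 9575, 11023.5 and 15430. Neither pair overlapped, and the changes were −1.82 ± 0.40 and −0.62 ± 0.12 (limma, adjusted p = 0.0116 and 0.00772). Neither passed in every 75th percentile scaling (adjusted p of up to 0.0747 and 0.673), and let-7g shrank to as little as −0.34. let-7e read 19786, 18985 and 18425.5 at 12 h and 33, 133, 3386, 36, 3365 and 3590 at 48 h. It was near the floor in samples 1, 2 and 4, the samples with the fewest detected probes, and far above it in the other 3. In samples 1 and 4 it lay below that sample's median of the never-detected probes (41.0 and 42.0). The size of its change over all samples therefore rests in part on background signals. Its change was −5.45 ± 1.54 (limma, adjusted p = 0.0338), smaller in size but past the threshold without samples 1, 2 and 4 (limma, adjusted p = 0.00213). Without these samples 7 of the 9 fell, and without 12 h sample 1 and 48 h samples 3 and 5, or with ranks in place of signals, the count was 0. It was 5 of 9 under the 75th percentile scaling over always-detected probes and 1 of 9 under that over all probes. The family's median was −1.10, against 0.08 for all tested probes.

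Other families split by member. In the miR-30 family miR-30b rose by 0.97 ± 0.17 (limma, adjusted p = 0.00425), whereas miR-30d fell by 1.25 and miR-30e by 3.27, each on the log2 scale. In the miR-99/100 and miR-125 family, miR-99b (1.07 ± 0.13) and miR-100 (0.79 ± 0.19) rose and miR-125b-5p (−1.07 ± 0.33) fell. In the miR-181 family, miR-181a rose and miR-181d fell. miR-15a fell by 2.95 in the miR-15/16 family, where 1 of 5 changed, and miR-26b fell by 0.73. The 3 miR-29 probes, which target collagen messages, were read throughout and had a median of −1.04 with 0 past the threshold. The rises of miR-30b, miR-99b, miR-100 and miR-181a each missed the threshold in at least 1 of the 75th percentile scalings. So did the falls of miR-30d, miR-125b-5p and miR-26b, while the falls of miR-30e, miR-15a and miR-181d passed in both. Those scalings lowered the median change of all tested probes, so this does not rank the falls above the rises. Without 48 h samples 1, 2 and 4, the calls of miR-30d, miR-30e and miR-15a were lost. Without 12 h sample 1 and 48 h samples 3 and 5, miR-99b and miR-15a passed among the changed members of these families and the others did not.

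The miR-17-92 clusters, known for driving proliferation, had 10 of 12 probes always detected and 2 of 11 tested that rose. miR-25 read 12006, 13499.5 and 13119 at 12 h and 16462, 23232 and 24788 (lowest, median and highest) at 48 h. miR-92a read 13881.5, 13931.5 and 15066.5 against 17993, 19604.5 and 20246. Neither pair overlapped on the raw scale, with changes of 0.81 ± 0.10 and 0.51 ± 0.09 (limma, adjusted p = 0.000578 and 0.00425). They did not pass in every 75th percentile scaling (limma, adjusted p of up to 0.151 and 0.341), and miR-92a did not without 12 h sample 1 and 48 h samples 3 and 5 (adjusted p = 0.0602).

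Among 6 Hox-embedded miRNAs, 2 fell. miR-10a, which restrains inflammatory signalling in endothelium, read 11547.5, 10534.5 and 11664.5 at 12 h and 91, 187, 125, 121, 1404 and 5155 at 48 h. miR-10b read 6264, 5822 and 9165 against 30, 2943, 31, 34, 44 and 42. In both, the 48 h samples lay below all 12 h samples, with 1 or 2 samples far above the rest. The changes were −4.68 ± 0.94 and −6.27 ± 1.44 (limma, adjusted p = 0.00829 and 0.0141), and neither passed without 12 h sample 1 and 48 h samples 3 and 5 (adjusted p = 0.0858 and 0.149). In 48 h samples 1, 3, 4, 5 and 6, miR-10b lay below that sample's median of the never-detected probes (41.0 to 67.0). The size of its change therefore rests on background signals and is not a measurement. Without 48 h samples 1, 2 and 4, miR-10a did not pass (−4.01, limma, adjusted p = 0.0562). Of the 15 tested miRNAs on a list of those published as responding to flow in endothelium, 3 rose (miR-92a, miR-143 and miR-145) and 3 fell (miR-10a, miR-126-3p and miR-155), with a median of −0.53 that became 0.01 without 48 h samples 1, 2 and 4. The imprinted Dlk1-Dio3 cluster had 1 of 31 tested probes past the threshold, miR-494, which read 6076, 4926.5 and 5166 at 12 h and 422, 778.5 and 2062 at 48 h. The hypoxia miRNA miR-210 did not pass (0.55 ± 0.34). In the remaining lists 1 of 3 neural (miR-128), 0 of 2 epithelial, 1 of 6 inflammation (miR-155), 0 of 4 miR-34 and 1 of 5 miR-23/27/24 probes tested had changed. Over all tested probes it was 94 of 430 (21.9%).

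miR-744 was among the always-detected probes with the largest rises. It read 5777.5, 4138 and 2198 at 12 h and 9177, 9996, 11162, 10229, 13268 and 15152 at 48 h, without overlap, and rose by 1.79 ± 0.28 log2 units (limma, adjusted p = 0.00258). It also passed under both 75th percentile scalings and without either set of samples. miR-18a*, the star strand of a miR-17-92 member, read 440.5, 361.5 and 344.5 at 12 h and 298, 3494 and 4635 (lowest, median and highest) at 48 h, with raw overlap through sample 3. The other large rises were of a solexa candidate, miR-93*, miR-762, miR-291a-3p, miR-7b and miR-193*, with changes between 1.57 and 2.37. Like miR-18a*, each of these 6 missed the threshold in at least 1 of the 75th percentile scalings, where miR-7b gave 0.12 to 0.56 and miR-93* 0.97 to 1.41. The other large falls were miR-1187, miR-532-3p, miR-185, miR-128 and miR-592, with changes between −2.52 and −1.06. Of these, miR-532-3p, miR-185 and miR-128 passed in both scalings and miR-1187 and miR-592 did not. Both scalings gave mostly falls, as stated above, so this does not rank these falls above the rises. None of these falls passed without 12 h sample 1 and 48 h samples 3 and 5 (limma, adjusted p of 0.0602 to 0.180), nor did miR-18a* and the 6 rises. With 1 sample left out at a time, miR-592 kept its call throughout. miR-532-3p lost it in 1 such fit, miR-185 in 2, miR-128 in 4 and miR-1187 in 6. Among the rises miR-762 lost it in 8 and the solexa candidate in 7.

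Some miRNAs varied between samples of one time more than between times. At 12 h, miR-203 had the largest spread among probes detected on every array of that time, with raw signals of 4575.5, 402 and 7016. miR-681, miR-294*, miR-335-5p and miR-350 followed. At 48 h, miR-875-3p read 9973, 8447, 127, 8706, 349 and 4894. The next in spread were the joint probe of miR-297c*, miR-297a* and miR-297b-3p, miR-187, miR-19a and a solexa candidate. The high and low samples were not the same ones from probe to probe: miR-19a was high in 48 h samples 2 and 6 and miR-187 in samples 2 and 4.

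The change between times was also fitted in the left, ligated carotid, from the same 2 deposited tables. There 191 of 474 probes changed (40.3%). Of the 94 probes that changed in the right carotid, 75 also passed in the left and 90 had the same sign. These values share the tables and are given as a description. Over all 474 probes the right and left changes had a correlation of 0.76, and the share of equal signs among them was not counted. The 90 equal signs are therefore not read as particular to the changed probes. miR-126-3p changed by −3.59 in the left carotid and miR-486 by 2.59. The fitted values were −5.97 for miR-155 and −7.04 for miR-365. miR-365 was detected on all 6 left arrays at 12 h and on 1 at 48 h, with raw signals of 44 to 218 at 48 h. Its left value therefore rests on background signals and is not a measurement. In a test of the difference itself, 1 of 474 probes (0.211%) had unequal changes in the arteries, and 53 had an unadjusted p under 0.05.

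That probe was miR-291b-5p, also of the miR-290 cluster. In the right carotid it was undetected on all 12 arrays, with raw signals of 138.5, 123.5 and 137 at 12 h and 61, 68 and 138 (lowest, median and highest) at 48 h. In the left carotid it read 2002 to 3232 at 12 h and 78 to 140 at 48 h. It was detected on all 6 left arrays at 12 h and on 0 arrays of the other 3 groups, and it entered the test only through the group where it was high. The fitted difference (limma, adjusted p = 4.59e-09) is therefore set against signals not above background and its size is not given as a measurement. The next smallest adjusted p-values were 0.0712 for miR-615-5p and miR-129-3p, 0.0839 for miR-190 and 0.0948 for miR-742*, none of which passed.

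**Figure D5:**
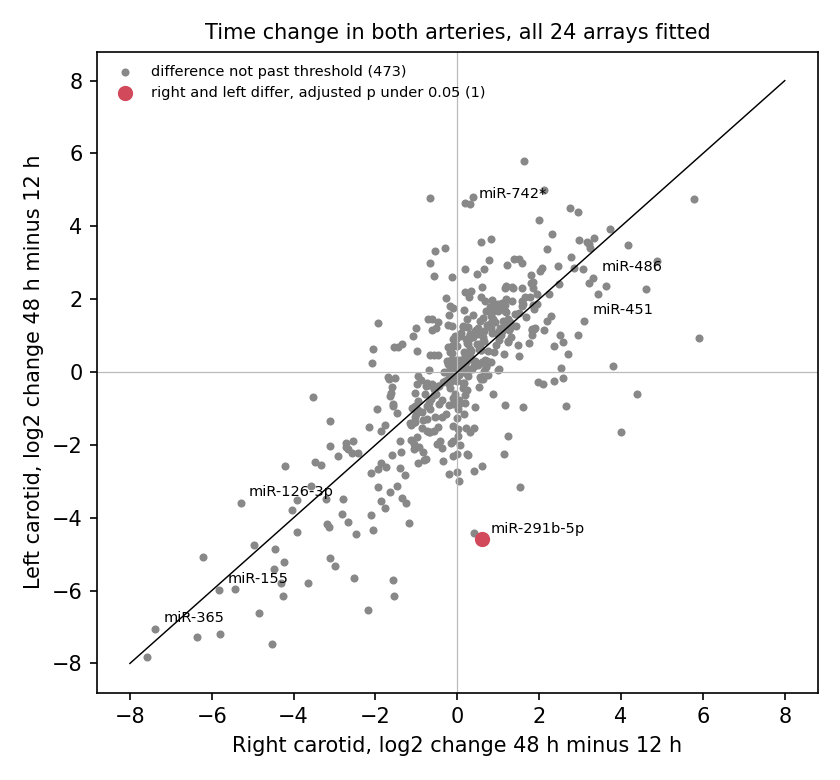
Log2 change from 12 h to 48 h in the right carotid (x axis) and in the left carotid (y axis) for 474 probes, from 1 fit of all 24 arrays, with the line of equal change. Only miR-291b-5p, marked, passed the test of the difference between the arteries.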

How the data were processed

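Per the labels, Cy3-labelled RNA was hybridised to Illumina bead arrays. The authors deposited, for each time point, a table of average signal intensities and detection p-values for 655 probes, exported with GenomeStudio 2010.2 per the submitters' processing notes. The sources used here do not give the way detection p-values were made or any earlier background step. Columns name artery and number; the table's name gives the time, and the order of the authors' processed intensities matched it.

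Right carotid arrays of one time with rank correlation above 0.98 were averaged. Signals were corrected and quantile-normalized with neqc (offset 16). Probes with a detection p under 0.05 on 3 or more arrays of either time entered the test. limma 3.58.1 in R 4.3.3 (lmFit, eBayes with an intensity trend, two-sided, Benjamini-Hochberg over all probes tested, threshold 0.05) compared 48 h with 12 h, and its steps were tested on simulated data. The design was planned with 6 samples a group, so the fit with every 12 h array as a sample is an alternative. The test of unequal changes in the arteries used all 24 arrays normalized together. Detected probes per sample were compared by an exact permutation test with scipy 1.17.1. For bounds ("at least N-fold"), each dim array took its lowest detected signal or, where higher, the probe's own normalized signal, and their mean was set against that of the bright group. The number of arrays limits the precision. Other normalizations, filters, detection thresholds, spread models and sample sets were tried as alternatives.

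Named miRNAs were the 15 brightest always-detected, the 10 largest rises and 10 largest falls among always-detected probes past the threshold, those detected on all 6 arrays of one time and none of the other, the 5 most variable at each time, examples from marker, family and cluster lists, and the 5 smallest p-values between arteries. The lists were written from memory, and members and lists were chosen with earlier results of these data known. Sequences are the deposited target sequences, with coordinates from RefSeq (GRCm38.p6) where exactly 1 entry matched. The replicate numbers did not pair the samples: deviations from the group means of same-numbered samples correlated at −0.16, 0.10 and −0.10.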

Additional observations from a re-analysis of the deposited data

Results flagged for a closer look

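At 48 h, 6 of 50 named probes tested had 1 right carotid sample lying far from the other 5, by Dixon's criterion for an outlying value on the normalized log2 signal. Chance gives about 1 such flag in 20 groups. Sample 4 was the low one for 4 of them, at 14.45 for let-7b, 14.29 for miR-23b, 13.50 for let-7d and 11.47 for miR-126-5p. Sample 4 also had the fewest detected probes of the right carotid arrays, 335 of 655. Sample 2 was low for miR-145, at 14.09, and sample 6 for miR-762, at 10.20.

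The change of miR-291b-5p between the times was called different between the arteries by limma's test of the difference. It was detected on all 6 left carotid arrays at 12 h and on 0 arrays of the other 3 groups, and it was tested only through that group. The fitted value, 5.19 log2 units (right minus left), therefore depends on background signals and is neither a measured size nor a bound.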

How the results depend on the processing

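Against 94 changed probes (54 higher, 40 lower), the 75th percentile scaling over all probes gave 48 (7 higher, 41 lower) and that over always-detected probes 107 (15 higher, 92 lower), with 39 and 54 of the 94 shared. Testing only probes detected on all 12 right arrays, a smaller set, gave 49 (34 and 15), and counting every 12 h array as a sample gave 166 (87 and 79). Leaving out 1 sample at a time gave 57 to 88 calls, 30 to 52 higher and 27 to 38 lower, with 57 without 12 h sample 1 and 62 without 12 h sample 2. Leaving out 12 h sample 1 and 48 h samples 3 and 5, chosen after seeing the data, gave 37 (20 and 17), and leaving out 48 h samples 1, 2 and 4, also chosen then, gave 87. A replicate block, although the numbers do not pair the samples, gave 21 (10 and 11). In the other settings (quantile without background correction, ranks, the authors' values, joint normalization, other filters, no trend, 4 groups) the count stayed between 77 and 109. Under the authors' processed values 3 changes that had not passed turned positive, miR-27a to 0.76, miR-26a to 0.48 and miR-1195 to 0.40; the cause was not tested. The artery difference, 1 probe, became 2 with no filter and 13 with every array as a sample, was 1 under the replicate block, and was 1 to 2 when a sample was left out, with miR-291b-5p among them each time. The difference in detected probes, −11.7, ranged from −19.4 to −3.83.

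Depth in the sense of signal over background limits the dim probes: those undetected on a whole group have bounds only, and the 12 h group rests on 3 samples. Of 1202 recomputed changes of single named miRNAs, 972 kept their direction and side of the threshold, 211 lost the call, 16 gained one and 3 reversed.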

Other observations

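Base composition of the target sequences is given by direction of change. The median share of G and C was 53.9% over 53 probes higher at 48 h, 44.2% over 40 lower ones and 47.6% over 332 tested probes that did not pass, against 45.5% over 649 probes with 1 target sequence. These are values over probes of the same arrays, with no test.

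The X chromosome carried 78 probes, of which 23 were never detected in the right carotid, 38 were tested, 2 rose and 4 fell. Of 85 probes on chromosome 12, which holds the Dlk1-Dio3 cluster, 47 were tested, 0 rose and 3 fell. Over the whole array 120 of 655 probes (18.3%) were never detected. Of the 430 tested, 54 (12.6%) rose and 40 (9.3%) fell. These counts are a description, and no chromosome was tested against the others.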
